A study of Sus scrofa with 22 samples.

Results

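The genes described here are 7 members of the KEAP1-NRF2 antioxidant system in the pig: KEAP1, NFE2L2, NQO1, HMOX1, GCLC, GCLM and TXNRD1. They were chosen by name, with earlier results of these data known. Their counts and medians beside those of all genes are therefore a description and not a test of the set. Each had at least 1 transcript record that could be matched to its symbol, so all 7 were found among 14389 genes with a matched record. A filter on low counts left all 7 among the 9911 genes tested in fetuses, and 5 of them among the 6958 genes tested in embryos, where NQO1 and GCLC were at or near 0. KEAP1 lies on chromosome 2 (69280940 to 69290267 in Sscrofa11.1), NFE2L2 on chromosome 15 (82967485 to 83146185), NQO1 on chromosome 6 (17292962 to 17302593) and GCLC on chromosome 7 (27209565 to 27253535). GCLM lies on chromosome 4 (123371198 to 123390130), TXNRD1 on chromosome 5 (80170334 to 80213889) and HMOX1 on an unplaced sequence of that assembly.

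RNA was sequenced from body tissue of pig fetuses (14 libraries) and from day 6 blastocysts grown in vitro (8 libraries). At day 30 and again at day 35 there were 2 libraries of abnormal fetuses, 3 of normal fetuses and 2 of fetuses conceived by natural fertilization (NF). The abnormal and normal groups, so named in the labels, are cloned, made by somatic cell nuclear transfer. The blastocyst groups held 2 libraries each: WT, XIST-KO, which lacks the X-silencing RNA XIST by its label, WT+Kdm4A, named after an eraser of histone methylation, and IVF, made by in vitro fertilization. WT, XIST-KO and WT+Kdm4A are cloned and labelled male, and IVF pools male and female embryos. All fetus libraries were labelled male except day 30 NF replicate 2, which was labelled female. The labels give no breed, donor cell line or clone, no criterion for abnormal, no form or dose of Kdm4A and no number of embryos per library. Nor do they state whether replicates came from separate animals or cultures. The p-values then measure only the spread between these samples, which may be technical.

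NRF2, the protein of NFE2L2, is the transcription factor that switches on much of the cell's defence against oxidants and electrophiles. KEAP1 is its sensor: it holds NRF2 and hands it to a CUL3 ubiquitin ligase for destruction, and oxidants that modify KEAP1 cysteines let NRF2 escape, enter the nucleus and pair with small MAF proteins on antioxidant response elements. Classical targets are NQO1, a quinone reductase, HMOX1, which breaks down heme, GCLC and GCLM, the catalytic and modifier subunits of the first enzyme of glutathione synthesis, and TXNRD1, which keeps thioredoxin reduced. Control of NRF2 by KEAP1 acts on the protein, which RNA levels do not measure.

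Fetus libraries held 0.59 to 11.54 M expected counts in total, and blastocyst libraries 6.45 to 20.35 M. Day 35 abnormal replicate 2 was the library with 0.59 M, where 3 counts equal 8.09 CPM, a count scaled to library size. Its rank correlation with day 30 NF replicate 1 over genes (0.912) was above that with the other day 35 abnormal library (0.859). Results of the members that rest on it are therefore given with and without it. EIF1AY, a Y-linked gene, was at 0 CPM in both day 35 abnormal libraries and in day 30 NF replicate 1, which are labelled male, and at 33.5 CPM in day 30 NF replicate 2, which is labelled female. In these 4 fetus libraries EIF1AY goes against the label. Among blastocysts, EIF1AY was at 0.0825 and 0 CPM in XIST-KO and at 0.483 to 1.14 CPM in WT and WT+Kdm4A, all labelled male. It was at 2.14 and 0 CPM in IVF. Whether the sex or the identity given for a library is wrong was not tested, and the group names below are those of the labels. Among blastocysts, XIST-KO replicate 1 had a higher rank correlation with WT replicate 2 (0.919) than with XIST-KO replicate 2 (0.862). Tissue makeup differed between fetus groups: the summed level of neural markers was 1902 to 2427 CPM in day 30 normal fetuses, against 505 to 546 in abnormal and 510 to 854 in NF fetuses, and 2666 to 4501, 191 to 324 and 450 to 460 CPM in the same order at day 35. Muscle markers had 5 of 7 tested genes lower in abnormal than in normal clones at both days and summed to 267 to 713 against 1331 to 1999 CPM at day 30 and 81.7 to 2123 against 3158 to 4400 CPM at day 35. Markers of cartilage and mesenchyme had 4 of 5 lower at day 30 (229 to 312 against 1183 to 1419 CPM) and 1 of 5 at day 35. The blastocyst list, which holds the epithelial keratins KRT8 and KRT18, had 4 of 7 higher in abnormal clones at day 30 (2044 to 2647 against 224 to 291 CPM), and at day 35, with 3 higher and 1 lower, it summed to 5433 CPM in abnormal replicate 1 and 210 CPM in replicate 2, against 281 to 423 CPM. Endothelial markers summed to 687 to 949 CPM in day 30 abnormal clones against 375 to 393 CPM in normal clones, with 1 of 4 tested genes higher. At day 35 the order was reversed, at 24.3 to 130 against 373 to 470 CPM, with 3 of 4 lower. The part of these differences in the results below was not tested. In bulk tissue, fewer cells of a type and less RNA per cell cannot be told apart. Blastocyst markers summed to 35482 to 101032 CPM in the day 6 libraries, where 7 of 9 were detected in each cloned library and 8 of 9 in each IVF library. NANOG was at 0 in the cloned libraries and IVF replicate 1, and SOX2 in the cloned libraries and IVF replicate 2. XIST and KDM4A had no usable record, so neither the knockout nor the Kdm4A treatment was checked here.

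The members differed widely in level. On the TPM scale, which corrects for transcript length, day 30 normal fetuses held KEAP1 at 50.2 ± 2.57 (SD, n = 3), TXNRD1 at 47.8 ± 0.801 and NFE2L2 at 38.4 ± 3.69. HMOX1 followed at 17.1 ± 4.27, then NQO1 at 7.88 ± 1.21, GCLC at 6.88 ± 1.36 and GCLM at 5.5 ± 0.473. KEAP1 and TXNRD1 lay within their spread of each other, as did NQO1 and GCLC, and GCLC and GCLM. In day 30 NF fetuses the order was led by HMOX1, at 161 ± 42.2 TPM (n = 2), followed by TXNRD1 at 92 ± 9.82, NFE2L2 at 71.5 ± 21.1 and KEAP1 at 50.2 ± 18.9. NFE2L2 overlapped with both of its neighbours in that order. NQO1 (24.1 ± 9.4), GCLM (13.3 ± 0.566) and GCLC (12.6 ± 1.61) came last. In day 30 abnormal clones HMOX1 also led, at 85.6 ± 33 TPM (n = 2), followed by NFE2L2 at 48 ± 3.32, TXNRD1 at 34.3 ± 5.21 and KEAP1 at 21.9 ± 7.34.

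Normal clones were compared with NF fetuses at each day to ask how clones labelled normal differ from naturally fertilized fetuses. NFE2L2, NQO1, HMOX1 and GCLM were lower in normal clones at both days, and TXNRD1 was lower at day 35. HMOX1 showed the widest gap, 9.57-fold at day 30 and 5.43-fold at day 35. At day 30, 4 of 7 members were lower and none higher, where 15.3% of all genes tested were lower and 14% higher (edgeR quasi-likelihood test, adjusted p under 0.05). At day 35, 5 of 7 were lower and none higher, where 20.1% of all genes were lower and 22.1% higher. At day 30, 3 members were lower without NF replicate 1 and 4 without NF replicate 2, where 12.2% and 6.41% of all genes were lower. The median log2 fold change of the members was -0.99 at day 30 and -1.24 at day 35, beside 0.00 and 0.06 over all genes tested.

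KEAP1, the sensor, did not pass the test at either day. Its level in normal clones was 106, 110 and 119 CPM at day 30 and 144, 83.3 and 128 CPM at day 35. In NF fetuses it was 87.2 and 142 CPM at day 30 and 143 and 161 CPM at day 35. The groups overlapped at both days, with log2 fold changes of -0.04 ± 0.28 (SE, edgeR adjusted p = 0.939) and -0.36 ± 0.27 (adjusted p = 0.308).

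NFE2L2, the transcription factor, held a narrow range in normal clones: 80.6, 72.2 and 85.1 CPM at day 30 and 83.4, 79 and 82.9 CPM at day 35. NF fetuses held 124 and 180 CPM at day 30 and 174 and 157 CPM at day 35. Every NF library lay above every normal library. The fall was 1.92-fold at day 30 (log2 fold change -0.94 ± 0.18, edgeR adjusted p = 0.00346) and 2.03-fold at day 35 (-1.02 ± 0.18, adjusted p = 0.00133). The call held on leaving out each library in turn.

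HMOX1, the heme-degrading enzyme, was at 15.9, 20.6 and 26.9 CPM in day 30 normal clones and at 172 and 234 CPM in day 30 NF fetuses. At day 35 normal clones held 41.2, 93 and 42.7 CPM, and NF fetuses 301 and 339 CPM. The groups were apart at both days, with 1 day 35 normal library above the other two. The log2 fold change was -3.26 ± 0.54 at day 30 (edgeR adjusted p = 0.00181) and -2.44 ± 0.52 at day 35 (adjusted p = 0.00391), and no single library decided either call. Macrophages are rich in HMOX1 in many tissues. The summed level of 10 macrophage markers was 46.7 to 61.4 CPM in normal clones and 79.3 to 93.7 CPM in NF fetuses at day 30, but 145 to 228 against 82.2 to 101 CPM at day 35, the opposite order to HMOX1. Erythroid markers, all 9 of which were detected in every day 30 normal library, ran from 1297 to 2929 CPM in normal clones and from 57 to 227 CPM in NF fetuses at that day, and from 1317 to 2791 against 175 to 186 CPM at day 35. The part of either cell type in the HMOX1 result was not tested.

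NQO1, the quinone reductase, was at 8.92, 12.8 and 11.1 CPM in day 30 normal clones and at 45.2 and 24.1 CPM in NF fetuses. At day 35 the values were 11.1, 18.6 and 13.2 CPM in normal clones and 43.3 and 26.9 CPM in NF fetuses. NF replicate 1 was the highest library at each day. NQO1 fell 3.15-fold at day 30 (log2 fold change -1.66 ± 0.40, edgeR adjusted p = 0.0105) and 2.45-fold at day 35 (-1.30 ± 0.40, adjusted p = 0.0218). Without NF replicate 1 the log2 fold change was -1.13 (adjusted p = 0.0969) at day 30 and -0.91 (adjusted p = 0.182) at day 35, and the day 35 call was also lost without normal replicate 1 (adjusted p = 0.0773) or 3 (adjusted p = 0.0621).

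The glutathione subunits differed in how firmly they could be called. GCLM, the modifier subunit, was at 26.3, 23.3 and 24.9 CPM in day 30 normal clones and at 61.4 and 62.5 CPM in NF fetuses, and at 24.5, 32.4 and 20.5 CPM against 64 and 57.8 CPM at day 35. GCLC, the catalytic subunit, was at 18.7, 29.2 and 23.7 CPM against 50.1 and 39.9 CPM at day 30, and at 32.1, 27.2 and 26.3 CPM against 43.6 and 49.3 CPM at day 35. For both genes every NF library lay above every normal library of its day. GCLM fell 2.5-fold at day 30 (log2 fold change -1.32 ± 0.24, edgeR adjusted p = 0.00259) and 2.35-fold at day 35 (-1.24 ± 0.24, adjusted p = 0.00211). GCLC had log2 fold changes of -0.91 ± 0.42 (adjusted p = 0.124) and -0.70 ± 0.42 (adjusted p = 0.197) and was not called. Without day 35 abnormal replicate 2, whose value shares in the estimate of the spread, GCLC was called lower at day 30 (log2 fold change -0.90, adjusted p = 0.00776) and at day 35 (-0.75, adjusted p = 0.0157), and without the other day 35 abnormal library likewise (adjusted p = 0.00742 and 0.0153).

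TXNRD1, the thioredoxin reductase, was at 142, 152 and 146 CPM in day 30 normal clones and at 275 and 305 CPM in NF fetuses. At day 35 normal clones held 100, 118 and 105 CPM and NF fetuses 366 and 310 CPM. The groups did not overlap at either day. The log2 fold change was -0.99 ± 0.40 at day 30 (edgeR adjusted p = 0.0817) and -1.65 ± 0.40 at day 35 (adjusted p = 0.00698). Leaving out either day 35 abnormal library gave -0.98 at day 30, with adjusted p = 0.000109 without replicate 1 and 0.000114 without replicate 2.

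**Figure D1:**
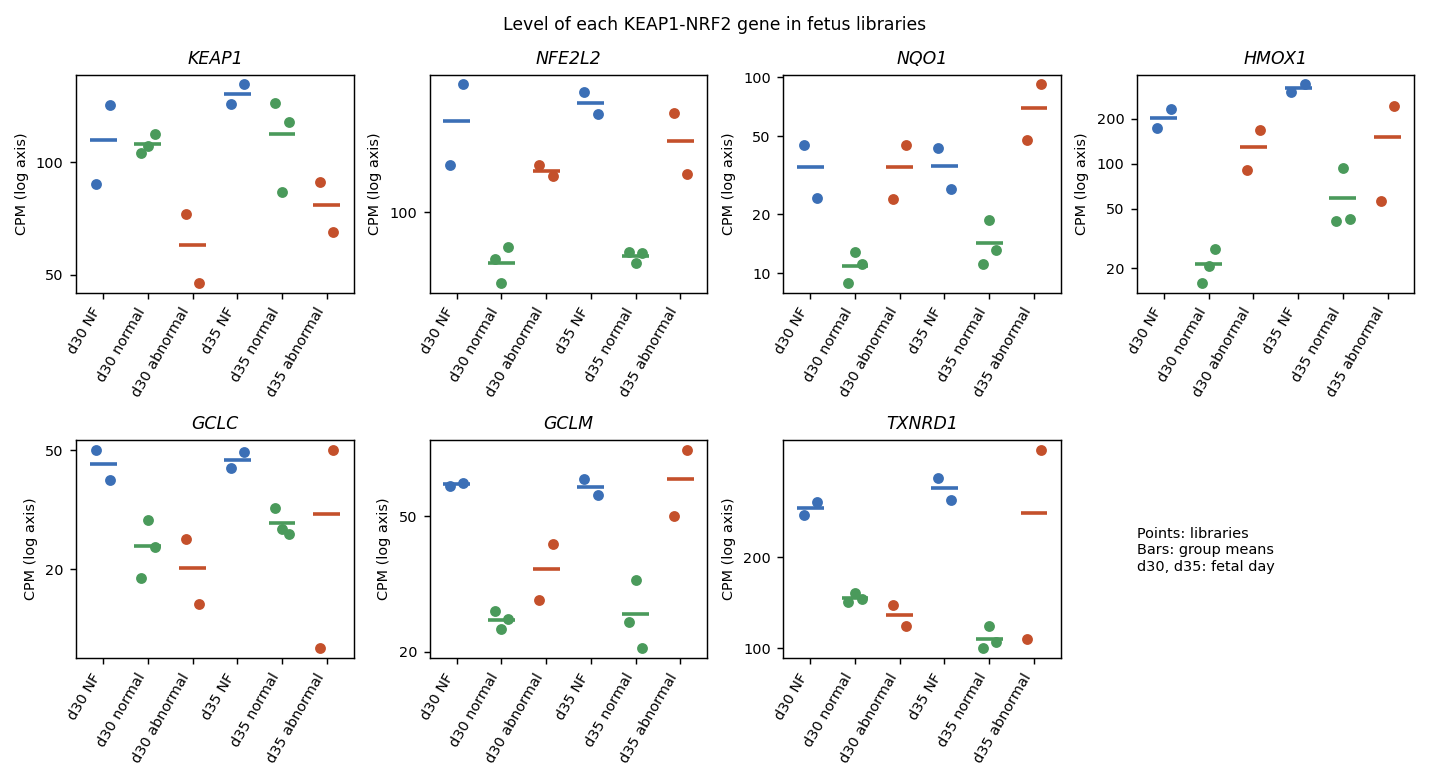
Level of each of the 7 genes in the 14 fetus libraries, in CPM on a log axis, by group; each point is a library and each bar a group mean. NFE2L2 in normal clones sits between 72.2 and 85.1 CPM at both days, below all abnormal and NF libraries, while KEAP1 in abnormal clones lies between 47.6 and 88.5 CPM.

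Abnormal clones were compared with normal clones at each day; these comparisons share the normal libraries with those above, so these values are not independent of those. Abnormal clones held more NFE2L2 and NQO1 than normal clones at both days, more HMOX1 at day 30, and more GCLM and TXNRD1 at day 35. At day 30, 3 of 7 members were higher and none lower (edgeR, adjusted p under 0.05), where 8.93% of all genes tested were higher and 6.46% lower. At day 35, 4 of 7 were higher and none lower, where 10.9% of all genes were higher and 12.3% lower. The median log2 fold change of the members was 0.49 at day 30 and 1.23 at day 35, beside -0.02 and 0.00 over all genes. Without day 35 abnormal replicate 2, 3 members were higher and 1 was lower at day 35, where 17.2% of all genes were higher and 17.9% lower, and without replicate 1, 4 were higher and none lower, where 13.3% of all genes were higher. The log2(TPM + 1) scale shifted the median of all genes to -0.27 at day 30 and -0.32 at day 35, and lowered the higher share of the calls from 58% to 27.7% and from 47.2% to 17.3%; values on that scale are given where they changed a call.

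KEAP1 was at 72.7 and 47.6 CPM in day 30 abnormal clones and at 88.5 and 64.9 CPM in day 35 ones. Both day 30 values lay below all 3 normal libraries, and the day 35 values overlapped with the lowest normal library. The log2 fold change was -0.90 ± 0.29 at day 30 (edgeR adjusted p = 0.0588) and -0.58 ± 0.30 at day 35 (adjusted p = 0.184), neither past the threshold. Without abnormal replicate 2 the day 35 value was -0.38 (adjusted p = 0.418). DESeq2 called the day 30 difference (-0.84, adjusted p = 0.0378). On the log2(TPM + 1) scale limma called KEAP1 lower at both days (-1.20, adjusted p = 0.0145, and -0.83, adjusted p = 0.0463). With edgeR the day 30 difference was also called in a fit of only the compared groups (-0.87, adjusted p = 0.0077) and on leaving out either day 30 NF library, either day 35 abnormal library or day 35 normal replicate 2 (adjusted p from 0.0298 to 0.0458).

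NFE2L2 was at 124 and 118 CPM in day 30 abnormal clones and at 158 and 119 CPM in day 35 ones. All 4 libraries lay above every normal library. NFE2L2 rose 1.53-fold at day 30 (log2 fold change 0.61 ± 0.18, edgeR adjusted p = 0.0432) and 1.73-fold at day 35 (0.79 ± 0.19, adjusted p = 0.0124). Neither call was firm. At day 30 it was lost on leaving out any of the 5 libraries compared, with log2 fold changes of 0.55 to 0.67 and adjusted p up to 0.183, and on the log2(TPM + 1) scale (0.32, adjusted p = 0.243). At day 35 NFE2L2 was 1.00 (adjusted p = 0.00224) without abnormal replicate 2, 0.52 (adjusted p = 0.135) without abnormal replicate 1 and 0.50 (adjusted p = 0.0663) on the log2(TPM + 1) scale.

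Within a library, the ratio of NFE2L2 to KEAP1 transcripts on the TPM scale needs no scaling between libraries. It was 0.818, 0.706 and 0.771 in day 30 normal clones and 0.624, 1.03 and 0.697 in day 35 normal clones. NF fetuses held 1.54 and 1.36 at day 30 and 1.3 and 1.05 at day 35. Abnormal clones held 1.86 and 2.73 at day 30 and 1.94 and 1.97 at day 35. The 3 kinds of fetus did not overlap in this ratio, with normal clones lowest and abnormal clones highest at both days. A ratio shows unequal change of its terms and does not say which of them moved. The ratio of GCLM to GCLC ran from 0.583 to 1.08 in normal clones and from 0.897 to 1.2 in NF fetuses. In abnormal clones it was 0.862 and 2.07 at day 30 and 3.51 and 1.19 at day 35, so that the replicates of this group differed more than the other groups did from each other. These ratios were not tested.

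**Figure D2:**
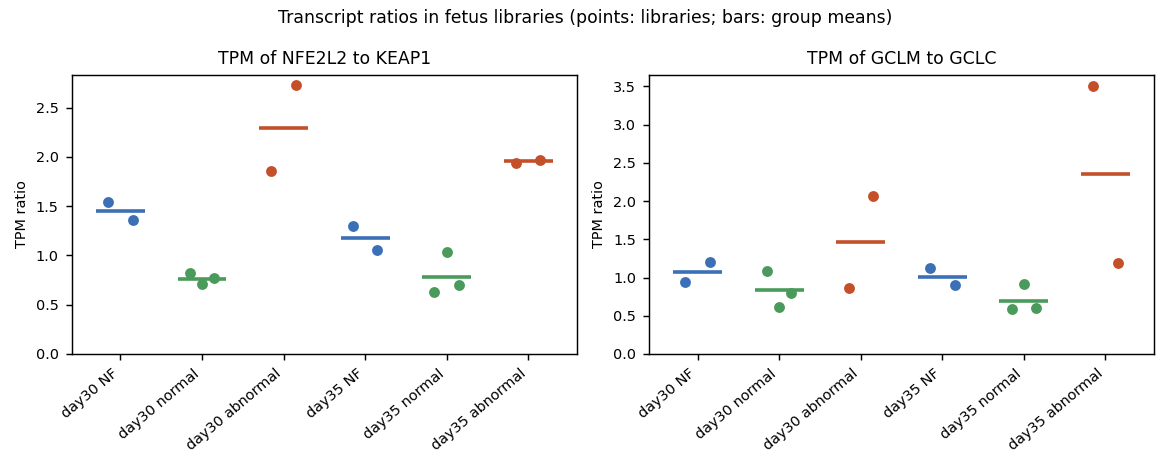
Ratio of TPM values within each fetus library, for GCLM to GCLC and for NFE2L2 to KEAP1, by group; points are libraries and bars group means. The NFE2L2 to KEAP1 ratio lies at 0.624 to 1.03 in normal clones, 1.05 to 1.54 in NF fetuses and 1.86 to 2.73 in abnormal clones.

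NQO1 was at 24 and 45.3 CPM in day 30 abnormal clones and at 47.6 and 91.7 CPM in day 35 ones. The lowest of these was about as high as the lower NF library of its day and above every normal library. NQO1 rose 3.15-fold at day 30 (log2 fold change 1.66 ± 0.41, edgeR adjusted p = 0.0213) and 4.6-fold at day 35 (2.20 ± 0.42, adjusted p = 0.00489). The day 35 call held on leaving out each library, with 1.77 (adjusted p = 0.0103) without abnormal replicate 2. At day 30 it was lost without abnormal replicate 2 (1.13, adjusted p = 0.222), without any of the 3 normal libraries (adjusted p = 0.0722, 0.0562 and 0.0683) and on the log2(TPM + 1) scale (1.22, adjusted p = 0.0579).

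HMOX1 was at 91.3 and 168 CPM in day 30 abnormal clones, above all normal libraries, and at 56 and 245 CPM in day 35 ones, where the lower value lay inside the normal range. It rose 6.1-fold at day 30 (log2 fold change 2.61 ± 0.54, edgeR adjusted p = 0.0107) and was not called at day 35 (1.23 ± 0.56, adjusted p = 0.137). Without abnormal replicate 2 the day 30 value was 2.10 (adjusted p = 0.0916). At day 35 HMOX1 was -0.03 (adjusted p = 0.97) without abnormal replicate 2 and 2.04 (adjusted p = 0.0126) without abnormal replicate 1. Macrophage markers summed to 124 to 216 CPM in day 30 abnormal clones, above the 46.7 to 61.4 CPM of normal clones, and 6 of 10 were called higher and none lower. Hepatocyte markers summed to 50 and 1736 CPM in the day 30 abnormal libraries, against 73.1 to 105 CPM in normal clones. At day 35, macrophage markers were at 42.2 to 56.7 CPM in abnormal and 145 to 228 CPM in normal clones. Erythroid markers summed to 395 and 1541 CPM in day 30 abnormal clones, against 1297 to 2929 CPM in normal clones. At day 35 they summed to 2242 CPM in abnormal replicate 1 and 0 in replicate 2, against 1317 to 2791 CPM in normal clones. The part of these cell types in the HMOX1 result was not tested.

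GCLM was at 28.4 and 41.5 CPM in day 30 abnormal clones and at 49.9 and 78.2 CPM in day 35 ones. All 4 values lay above the normal libraries of their day. It was not called at day 30 (log2 fold change 0.49 ± 0.25, edgeR adjusted p = 0.2) and rose 2.36-fold at day 35 (1.24 ± 0.26, adjusted p = 0.0071). The day 35 call held on leaving out each library, with 0.99 (adjusted p = 0.0129) without abnormal replicate 2, but not in a fit of only the compared groups (1.24, adjusted p = 0.0985).

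GCLC and TXNRD1 depended on day 35 abnormal replicate 2. GCLC was at 25.2 and 15.3 CPM in day 30 abnormal clones and at 10.9 and 50.2 CPM in day 35 ones, below and above all normal libraries. TXNRD1 was at 139 and 118 CPM in day 30 abnormal clones and at 107 and 453 CPM in day 35 ones. TXNRD1 was thus within the normal range in 1 day 35 abnormal library and far above it in the other. The log2 fold change of GCLC was -0.24 ± 0.45 at day 30 (edgeR adjusted p = 0.759) and -0.26 ± 0.52 at day 35 (adjusted p = 0.768), and without replicate 2 it was -1.37 at day 35 (adjusted p = 0.0128), a call of lower. TXNRD1 was at -0.19 ± 0.41 at day 30 (adjusted p = 0.792). At day 35 it was called higher with all libraries (1.31 ± 0.41, adjusted p = 0.0405), but without replicate 2 it was 0.04 (adjusted p = 0.88) and without replicate 1 it was 2.05 (adjusted p = 1.74e-05). That call was also lost on leaving out any other single fetus library except day 30 NF replicate 1 (1.27 to 1.39, adjusted p up to 0.106), and on the log2(TPM + 1) scale (0.79, adjusted p = 0.232).

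**Figure D3:**
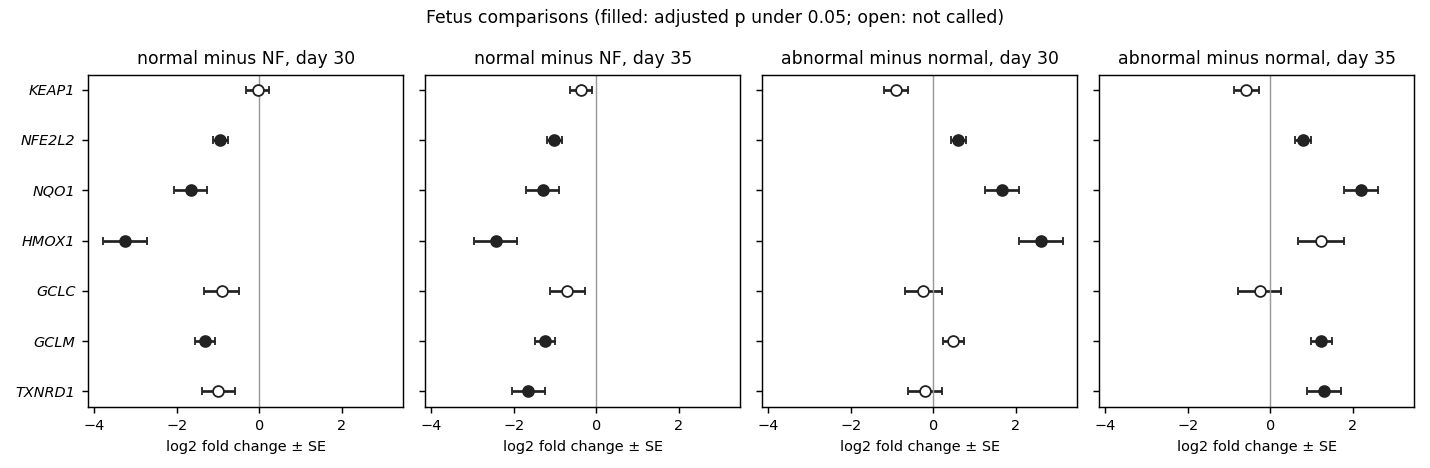
Log2 fold change of each gene with its SE from edgeR in the fetus comparisons; filled points passed adjusted p under 0.05 and open points did not. In normal clones against NF fetuses no member was called higher, and in abnormal against normal clones none was called lower.

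Abnormal clones were also set beside NF fetuses. At day 30 KEAP1 and GCLM were lower in abnormal clones (log2 fold changes -0.94 ± 0.31, edgeR adjusted p = 0.0424, and -0.83 ± 0.27, adjusted p = 0.0391). These were 2 of 7 members, with none higher, where 14.5% of all genes tested were lower and 15.5% higher. Each of these calls was lost on leaving out either abnormal library (KEAP1 -1.26 and -0.66, adjusted p = 0.0578 and 0.249, and GCLM -0.57 and -1.12, adjusted p = 0.23 and 0.0527, without replicates 1 and 2). Both were also lost without day 30 NF replicate 2 (-0.55, adjusted p = 0.27, and -0.83, adjusted p = 0.113) and under several other settings. Without day 35 abnormal replicate 2, GCLC (-1.14, adjusted p = 0.00558) and TXNRD1 (-1.17, adjusted p = 8.92e-05) were called lower at day 30 as well, and without replicate 1 likewise (adjusted p = 0.0054 and 8.83e-05). The log2(TPM + 1) scale shifted the median of all genes to -0.23 at day 30 and -0.37 at day 35 and lowered the higher share of the calls from 51.7% to 33.1% and from 56.1% to 15.7%. At day 35 edgeR called 0 of 7 members, where 23.2% of all genes were called in either direction. At an unadjusted p under 0.05 there was 1 member, KEAP1 (-0.94 ± 0.32, adjusted p = 0.0539), DESeq2 called 0 and limma on log2(TPM + 1) called 1, KEAP1 (-1.31, adjusted p = 0.0123). edgeR also called KEAP1 without day 30 NF replicate 1 (adjusted p = 0.0378) or 2 (adjusted p = 0.0401) or day 35 normal replicate 2 (adjusted p = 0.0424). Without day 35 abnormal replicate 2, GCLC (-2.11, adjusted p = 0.00098), HMOX1 (-2.52, adjusted p = 0.00414) and TXNRD1 (-1.66, adjusted p = 5.13e-05) were called lower at day 35, where 23.2% of all genes were lower. KEAP1 was -0.78 (adjusted p = 0.0988) without that library. NFE2L2 differed by -0.33 ± 0.20 at day 30 and -0.23 ± 0.20 at day 35 (adjusted p = 0.228 and 0.434), and by -0.07 (adjusted p = 0.813) at day 35 without abnormal replicate 2. NQO1 differed by 0.00 ± 0.44 at day 30 and 0.91 ± 0.46 at day 35 (adjusted p = 1 and 0.165), and by 0.43 (adjusted p = 0.482) at day 35 without that library. HMOX1 differed by -0.65 ± 0.58 at day 30 and -1.21 ± 0.61 at day 35 with all libraries (adjusted p = 0.413 and 0.165). GCLC (-1.14 ± 0.49, adjusted p = 0.0953) and TXNRD1 (-1.17 ± 0.45, adjusted p = 0.0685) were not called at day 30 with all libraries, and at day 35 the values were -0.96 ± 0.55 for GCLC, 0.00 ± 0.28 for GCLM and -0.34 ± 0.45 for TXNRD1 (adjusted p = 0.215, 1 and 0.622).

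Day 35 was compared with day 30 within each kind of fetus. In normal clones edgeR called 0 of 7 members, where 9.19% of all genes were called. HMOX1 was the 1 member at an unadjusted p under 0.05 (log2 fold change 1.47 ± 0.49, adjusted p = 0.0877); DESeq2 called it (1.50, adjusted p = 0.0218) and limma on log2(TPM + 1) called 0 members. TXNRD1 was at -0.44 ± 0.36 (adjusted p = 0.473), and KEAP1, NFE2L2, NQO1, GCLC and GCLM lay between 0.05 and 0.38. Without day 35 abnormal replicate 2, which shares in the estimate of the spread, HMOX1 was called higher (1.42, adjusted p = 0.0158) and TXNRD1 lower (-0.50, adjusted p = 0.00868), and the same held without replicate 1 (adjusted p = 0.0157 and 0.00852). In NF fetuses edgeR called 0 members and 0 genes in all (0%), with 0 members at an unadjusted p under 0.05 and 0 by DESeq2 or limma. KEAP1, NFE2L2, NQO1, HMOX1, GCLC, GCLM and TXNRD1 lay between -0.02 and 0.66 there (each adjusted p = 1). Over all genes 351 had an unadjusted p under 0.05, DESeq2 called 11 and limma on log2(TPM + 1) called 1. In abnormal clones edgeR called 0 members, where 3.51% of all genes were called; GCLM (0.80 ± 0.29, adjusted p = 0.146) and TXNRD1 (1.06 ± 0.46, adjusted p = 0.222) were the 2 at an unadjusted p under 0.05, and DESeq2 and limma called 0. KEAP1, NFE2L2, NQO1, HMOX1 and GCLC lay between 0.09 and 0.92 (adjusted p from 0.289 to 0.969). Without day 35 abnormal replicate 1, GCLC, GCLM and TXNRD1 were called higher at day 35 than at day 30 in abnormal clones (1.26, adjusted p = 0.0419, 1.09, adjusted p = 0.0355, and 1.74, adjusted p = 9.52e-05), and without replicate 2 none was.

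The difference between the day 35 and the day 30 effect of abnormal against normal was tested as an interaction. edgeR called 0 of 7 members, where 4.05% of all genes were called, and DESeq2 and limma also called 0. TXNRD1 was the 1 member at an unadjusted p under 0.05 (1.50 ± 0.59, adjusted p = 0.164). HMOX1 had -1.38 ± 0.79 (adjusted p = 0.327), which became -2.64 (adjusted p = 0.0284) without day 35 abnormal replicate 2. TXNRD1 became 2.24 (adjusted p = 9.26e-05) without replicate 1. KEAP1, NFE2L2, NQO1, GCLC and GCLM lay between -0.03 and 0.74 with all libraries (adjusted p from 0.254 to 1). The effects of HMOX1, GCLM and TXNRD1, each called at 1 day only, are therefore not shown to differ between days with all libraries.

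Other genes of the pathway were taken from 6 lists of 82 genes, of which 65 had a matched record and 62 were tested in fetuses. The lists cover regulators, glutathione metabolism, thioredoxin and peroxide removal, NADPH supply, heme and iron, and detoxification with export. In normal clones against NF fetuses 10 were higher and 14 lower at day 30 (14% and 15.3% of all genes), and 13 were higher and 15 lower at day 35 (22.1% and 20.1%). In abnormal against normal clones 11 were higher and 5 lower at day 30 (8.93% and 6.46%), and 11 were higher and 7 lower at day 35 (10.9% and 12.3%). These day 35 counts, and those of the single lists below, include abnormal replicate 2. Without that library the list counts changed, as did the calls over all genes, and they are not given here. Over all lists the counts in normal against NF were thus near the share of all genes.

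Regulators held the most lower calls for their number: 5 of 9 tested in normal clones against NF fetuses at day 30, and 6 of 9 at day 35, with 1 higher at each day. Of all genes, 15.3% and 20.1% were lower at these days, and 14% and 22.1% higher. In abnormal against normal clones 3 regulators were higher and 1 lower at day 30, where 8.93% of all genes were higher and 6.46% lower. At day 35, 3 were higher and 2 lower, where 10.9% of all genes were higher and 12.3% lower. SQSTM1, whose protein p62 binds KEAP1 and removes it by autophagy, was at 150 ± 19.1 CPM in day 30 normal clones (n = 3), 380 ± 66.8 in NF fetuses (n = 2) and 260 ± 7.94 in abnormal clones (n = 2). It was lower in normal than in NF fetuses (log2 fold change -1.34 ± 0.18, edgeR adjusted p = 0.00058) and higher in abnormal than in normal clones (0.79 ± 0.18, adjusted p = 0.0152). MAFF, a small MAF protein that pairs with NRF2 or with its competitors, was at 10.4 ± 0.865 CPM in day 30 normal clones, 35.9 ± 0.365 in NF fetuses and 137 ± 40.3 in abnormal clones. Its rise in abnormal over normal clones was 3.72 ± 0.22 at day 30 (adjusted p = 1.26e-05) and 1.57 ± 0.23 at day 35 (adjusted p = 0.00113), and the 2 effects differed (interaction -2.15 ± 0.32, adjusted p = 0.0073). The day 35 rise of MAFF was 1.67 (adjusted p = 0.000657) without abnormal replicate 2. NFE2L3, a relative of NFE2L2, went the other way, at 29.6 ± 0.777 CPM in day 30 normal clones against 12.3 ± 2.08 in NF fetuses (1.27 ± 0.28, adjusted p = 0.00687). DPP3 was lower in normal than in NF fetuses at day 30 (-1.10 ± 0.21, adjusted p = 0.00321). It was also lower in abnormal than in normal clones at day 35 (-1.11 ± 0.28, adjusted p = 0.0155), by -0.61 without abnormal replicate 1. BTRC was lower in abnormal than in normal clones at day 30 (-0.71 ± 0.16, adjusted p = 0.015).

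In the list of thioredoxin and peroxide removal, 6 of 16 genes tested were lower and 3 higher in normal clones against NF fetuses at each day. The lower and higher shares of all genes were 15.3% and 14% at day 30, and 20.1% and 22.1% at day 35. The 3 higher genes were CAT, PRDX2 and PRDX5 at both days. Their log2 fold changes at day 30 were 0.65 ± 0.19, 0.76 ± 0.18 and 1.29 ± 0.31 (edgeR adjusted p = 0.0236, 0.00994 and 0.011). SRXN1, which repairs overoxidized peroxiredoxins and is a known NRF2 target, was at 20.2 ± 0.915 CPM in day 30 normal clones, 115 ± 41 in NF fetuses and 81.7 ± 7.96 in abnormal clones. It was lower in normal than in NF fetuses (log2 fold change -2.51 ± 0.41, edgeR adjusted p = 0.00159) and higher in abnormal than in normal clones (2.02 ± 0.41, adjusted p = 0.00991). At day 35 SRXN1 was at 19.4 ± 6.37 CPM in normal clones, 163 ± 90.3 in NF fetuses and 92.4 ± 48.7 in abnormal clones, and its rise in abnormal clones was called with (2.14 ± 0.44, adjusted p = 0.00658) and without abnormal replicate 2 (1.61, adjusted p = 0.0178). TXN, the thioredoxin that TXNRD1 reduces, was at 43.7 ± 1.71 CPM in day 30 normal clones and 143 ± 39.2 in NF fetuses (-1.71 ± 0.31, adjusted p = 0.00296). SOD2, the mitochondrial superoxide dismutase, had a wide spread in NF fetuses, at 262 ± 247 CPM against 50 ± 2.71 in day 30 normal clones (-2.39 ± 0.50, adjusted p = 0.00578), and without NF replicate 2 it was not called (-0.80, adjusted p = 0.143). In abnormal against normal clones 4 of the 16 genes were higher and 1 lower at day 30, and 5 were higher and 2 lower at day 35. There 8.93% of all genes were higher and 6.46% lower at day 30, and 10.9% and 12.3% at day 35. The lower genes were CAT at both days (-0.80 ± 0.19, edgeR adjusted p = 0.0192, and -1.14 ± 0.20, adjusted p = 0.00336) and PRDX2 at day 35 (-0.73 ± 0.18, adjusted p = 0.0162).

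The glutathione list held no lower call in normal clones against NF fetuses, with 2 of 11 genes tested higher at day 30 and 5 higher at day 35. Over all genes tested, 15.3% were lower and 14% higher at day 30, and 20.1% were lower and 22.1% higher at day 35. GSTA4, a glutathione transferase for lipid aldehydes, was at 227 ± 40.3 CPM in day 35 normal clones and 61.5 ± 13.1 in NF fetuses (log2 fold change 1.89 ± 0.26, edgeR adjusted p = 0.000368). GPX3, the secreted glutathione peroxidase, was at 28.3 ± 4.48 against 6.29 ± 2.96 CPM at that day (2.16 ± 0.39, adjusted p = 0.00157). These directions were opposite to that of GCLM. In abnormal against normal clones 3 of the 11 genes were higher and 1 lower at day 30, and 1 was higher and 3 lower at day 35. Of all genes, 8.93% were higher and 6.46% lower at day 30, and 10.9% were higher and 12.3% lower at day 35. GPX1, the cytosolic glutathione peroxidase, was lower at both days, at 74.6 ± 18.4 against 129 ± 15 CPM at day 30 (-0.79 ± 0.22, adjusted p = 0.0353) and at 81.9 ± 2.43 against 156 ± 23.2 CPM at day 35 (-0.94 ± 0.23, adjusted p = 0.0162), a call lost without day 35 abnormal replicate 1 (-0.92, adjusted p = 0.0704). GPX3 was higher at day 30 (1.48 ± 0.35, adjusted p = 0.0192) and lower at day 35 (-1.76 ± 0.45, adjusted p = 0.0175), the latter lost without abnormal replicate 1 (-1.82, adjusted p = 0.101). GSTA4 was lower at day 35 (-0.93 ± 0.26, adjusted p = 0.024), a call lost without abnormal replicate 2 (-0.68, adjusted p = 0.0784). SLC3A2, the heavy chain of the cystine importer, was higher in abnormal than in normal clones at day 30 (170 ± 32.2 against 64.6 ± 15.4 CPM, 1.40 ± 0.31, adjusted p = 0.0148) and at day 35 (1.07 ± 0.32, adjusted p = 0.0343), where the call was lost without abnormal replicate 1 (0.32, adjusted p = 0.612). Of the NADPH list, 1 of 7 genes, IDH1, was higher in normal clones than in NF fetuses at each day, and none was lower. The shares of all genes for this comparison are those at the head of this paragraph. IDH1, the cytosolic isocitrate dehydrogenase, was at 144 ± 14.5 against 52.7 ± 24.8 CPM at day 30 (1.45 ± 0.35, adjusted p = 0.0116), a call lost without NF replicate 2 (1.03, adjusted p = 0.111), and at 165 ± 16.3 against 28.7 ± 10.2 CPM at day 35 (2.52 ± 0.38, adjusted p = 0.000584).

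Of the heme and iron list, 1 of 10 genes was higher and 1 lower in normal clones against NF fetuses at each day. The higher and lower shares of all genes were 14% and 15.3% at day 30, and 22.1% and 20.1% at day 35. BLVRA, which turns the biliverdin made by HMOX1 into bilirubin, was the higher one, at 56.5 ± 12.7 against 26.5 ± 11.2 CPM at day 30 (log2 fold change 1.09 ± 0.33, edgeR adjusted p = 0.0314), the opposite direction to HMOX1. TFRC, the transferrin receptor, was the lower one, at 53 ± 4.39 against 147 ± 11.2 CPM (-1.47 ± 0.43, adjusted p = 0.0252). Without day 30 NF replicate 1 the TFRC value was -1.39 (adjusted p = 0.0968) and without replicate 2 it was -1.55 (adjusted p = 0.084), while BLVRA was not called without replicate 2 (0.72, adjusted p = 0.23). TFRC reached 342 ± 30.3 CPM in day 30 abnormal clones, a rise of 2.69 ± 0.44 over normal clones (adjusted p = 0.00347). The detoxification list had 2 of 9 genes higher and 2 lower in normal clones against NF fetuses at each day, among them CBR3, a carbonyl reductase, at 1.27 ± 0.55 against 8.11 ± 1.83 CPM at day 35 (-2.64 ± 0.65, adjusted p = 0.00812).

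**Figure D4:**
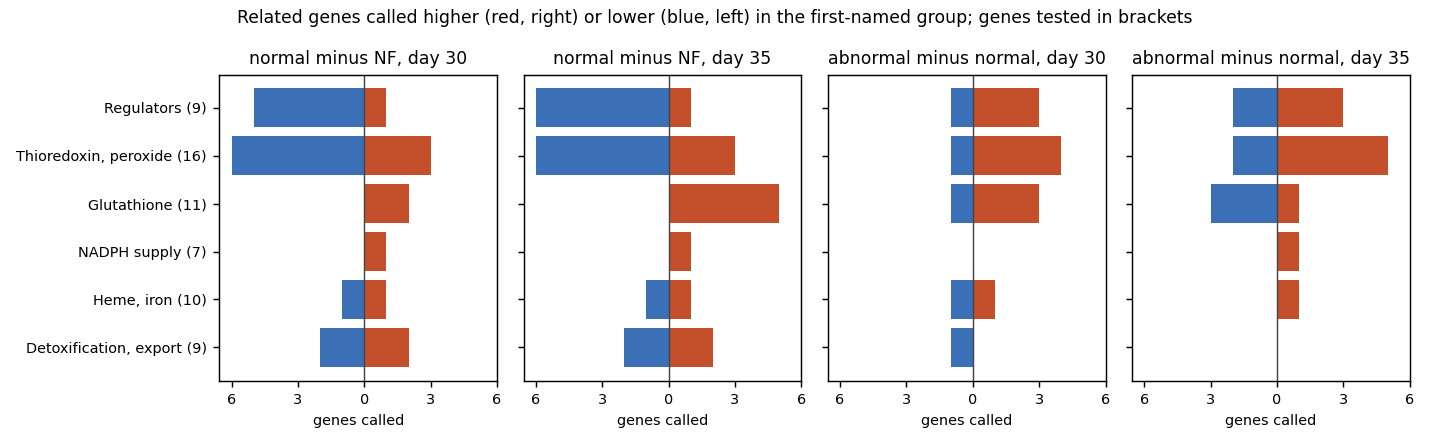
Number of genes of each related list called higher (red) or lower (blue) in the first-named group of each fetus comparison by edgeR, with the number tested in brackets. In normal clones against NF fetuses regulators were lower in 5 and 6 of 9, while the glutathione list held no lower call. Of all genes tested, 15.3% were lower at day 30 and 20.1% at day 35.

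The genes whose log2 CPM followed a member most closely over the 14 fetus libraries were listed as a description; these libraries share their groups, and no p is given. NFE2L2 was followed by SQSTM1 (Pearson r = 0.97, Spearman 0.94), KLF10 (0.97 and 0.87) and IRF1 (0.96 and 0.90). TXNRD1 was followed by PSMD12 (r = 0.98), TNPO3 (0.98) and PSME3 (0.97), and HMOX1 by LGMN, SLC12A4 and PLAUR (each 0.95). NQO1 was followed by SF3B6 (0.96), RCN1 and LGALSL (0.95 each), GCLM by MMP9 (0.97), PAPPA and EMG1 (0.96 each), and GCLC by ATP1B3, ABCF1 (0.96 each) and AKT2 (0.95). KEAP1 had the weakest best match, CD247 (r = 0.92), and was also followed by ARMT1 (0.89). Leaving out the 2 libraries farthest from the member's median gave r of 0.95 for SQSTM1, 0.98 for PSMD12 and 0.86 for CD247.

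In day 6 embryos, WT clones were compared with IVF embryos. KEAP1 and HMOX1 were higher in WT clones, 2 of the 5 members tested, where 4.28% of all genes tested were higher and 1.42% lower, and no member was lower (edgeR, adjusted p under 0.05). The median log2 fold change of the 5 members was 1.11, beside -0.23 over all genes. On the log2(TPM + 1) scale the median of all genes was -0.51, and 48.1% of the calls were higher in place of 75.1%. KEAP1 was at 163 and 64.2 CPM in WT, but at 0.075 and 0.0675 CPM in IVF, where RSEM assigned 0.49 and 0.55 expected counts, below the floor of 3 counts in each library. KEAP1 was at 90.2 and 113 CPM in XIST-KO and at 63.3 and 139 CPM in WT+Kdm4A embryos. All 6 cloned libraries thus held KEAP1 at 63.3 to 163 CPM, while both IVF libraries held next to none.

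Rounded counts of KEAP1 summed to 1384 over WT and to 1 over IVF, a ratio of summed CPM of 1701 with an exact 95% interval of 305 to 67227 for counting error only. The ratio was 1517 (272 to 59942) for XIST-KO and 1405 (252 to 55531) for WT+Kdm4A over IVF. These 3 ratios share the IVF libraries. The difference was called in WT (edgeR adjusted p = 0.00371), XIST-KO (adjusted p = 0.00952) and WT+Kdm4A (adjusted p = 0.0094). For WT the call was lost without IVF replicate 2 (adjusted p = 0.11). For XIST-KO and WT+Kdm4A it was lost without IVF replicate 1 (adjusted p = 0.119 and 0.099) or replicate 2 (adjusted p = 0.293 and 0.255), and in a fit of only the compared groups (adjusted p = 0.129 and 0.0649). On the log2(TPM + 1) scale limma did not call KEAP1 in WT+Kdm4A (4.61, adjusted p = 0.0641). In all 22 libraries the record of 2596 bases held most KEAP1 counts, from 78.4% to 100%, so that the IVF value rests on this record. Only 3 of 5 annotated KEAP1 transcripts were matched, and whether the IVF libraries lacked KEAP1 RNA or held reads that were not assigned to these records was not tested.

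Against IVF, XIST-KO and WT+Kdm4A had 1 of 5 members called higher, KEAP1, where 0.0431% of all genes were called higher, 3 genes in each, and 0% lower. The other 2 genes were CALR, an endoplasmic reticulum chaperone, and IGSF5, a junction protein, both at 0 in IVF. CALR and IGSF5 were looked at after their values were seen. In all, 735 genes reached the lowest KEAP1 level of the clones in every cloned library. Of these, 2 had at most 3 counts summed over IVF, KEAP1 and CALR. Both lie on chromosome 2, with CALR at 66098263 to 66102074 and KEAP1 at 69280940 to 69290267. KEAP1 itself set the level asked for, and IGSF5 did not reach it in every cloned library. The place of IGSF5 and the share of the 735 genes on chromosome 2 were not looked at. The part of the location shared by KEAP1 and CALR in the IVF values was not tested. HMOX1 in XIST-KO against IVF was not called (log2 fold change 2.97 ± 0.84, adjusted p = 0.21), but was with DESeq2 (2.83, adjusted p = 0.0143) and with edgeR without XIST-KO replicate 2 (3.74, adjusted p = 0.0263) or either WT+Kdm4A library (adjusted p = 0.0151 and 0.0167). NFE2L2 (2.71 ± 0.90, adjusted p = 0.251), which DESeq2 called (2.63, adjusted p = 0.0414), GCLM (0.60 ± 1.49, adjusted p = 0.884) and TXNRD1 (1.22 ± 0.72, adjusted p = 0.424) were not called in XIST-KO against IVF. In WT+Kdm4A against IVF neither NFE2L2 (2.67 ± 0.89, adjusted p = 0.334) nor HMOX1 (2.52 ± 0.83, adjusted p = 0.334), GCLM (0.45 ± 1.48, adjusted p = 0.952) or TXNRD1 (0.78 ± 0.72, adjusted p = 0.723) was called.

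HMOX1 was at 5039 and 1884 CPM in WT, 1040 and 168 in XIST-KO, 304 and 579 in WT+Kdm4A and 70.2 and 84.2 CPM in IVF embryos. The WT libraries were the highest and the IVF libraries the lowest, and the other groups lay between them without overlap with either. HMOX1 was 44.8-fold higher in WT than in IVF (log2 fold change 5.49 ± 0.95, edgeR adjusted p = 0.013), a call lost without IVF replicate 1 (5.40, adjusted p = 0.087) or replicate 2 (5.64, adjusted p = 0.187). It was not called in XIST-KO against WT (-2.52 ± 0.83, adjusted p = 0.144) or in WT+Kdm4A against WT (-2.97 ± 0.84, adjusted p = 0.0538). Of 10 macrophage markers, 1 to 4 were detected in each library, with a summed level of 50.4 and 62.2 CPM in WT, 28.9 and 41.3 in XIST-KO, 37 and 39.8 in WT+Kdm4A and 58.8 and 64.8 CPM in IVF, and C1QB, C1QC, CD163 and MRC1 were at 0 in all 8. Their part in the HMOX1 result was not tested.

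NFE2L2 was at 11.6 and 19.5 CPM in WT and 26 and 11 CPM in IVF embryos, which overlapped (log2 fold change -0.25 ± 0.85, edgeR adjusted p = 0.887). It was at 61.2 and 181 CPM in XIST-KO and at 183 and 51.9 CPM in WT+Kdm4A embryos, all above both other groups. The difference from WT was 2.96 ± 0.91 in XIST-KO (adjusted p = 0.121) and 2.92 ± 0.91 in WT+Kdm4A (adjusted p = 0.0696). These 2 comparisons share the WT libraries.

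Against WT, edgeR called 0 of 5 members in XIST-KO, where 1.11% of all genes were called, and 0 of 5 in WT+Kdm4A, where 7.43% were. In each, NFE2L2 and HMOX1 were the 2 members at an unadjusted p under 0.05, and DESeq2 called both: in XIST-KO NFE2L2 at 2.90 (adjusted p = 0.0105) and HMOX1 at -2.62 (adjusted p = 0.0133), and in WT+Kdm4A NFE2L2 at 2.80 (adjusted p = 0.00887) and HMOX1 at -3.09 (adjusted p = 0.00148). On the log2(TPM + 1) scale limma called 0 members in XIST-KO and 1, HMOX1, in WT+Kdm4A (-2.92, adjusted p = 0.044). KEAP1 (-0.16 ± 0.75 and -0.17 ± 0.75), GCLM (1.57 ± 1.52 and 1.43 ± 1.52) and TXNRD1 (0.11 ± 0.71 and -0.33 ± 0.71) had adjusted p of at least 0.549 in both comparisons with WT. With edgeR both NFE2L2 and HMOX1 were called in XIST-KO against WT without XIST-KO replicate 1 (NFE2L2 3.55, adjusted p = 0.0342, and HMOX1 -4.35, adjusted p = 0.016), WT+Kdm4A replicate 1 (adjusted p = 0.0453 and 0.0245) or WT+Kdm4A replicate 2 (adjusted p = 0.0354 and 0.0232). In WT+Kdm4A against WT both were called without WT+Kdm4A replicate 2 (3.58, adjusted p = 0.0143, and -3.49, adjusted p = 0.0163), XIST-KO replicate 1 (adjusted p = 0.0272 and 0.00775) or XIST-KO replicate 2 (adjusted p = 0.0361 and 0.00978). The median log2 fold change over all genes was 0.15 in XIST-KO and 0.35 in WT+Kdm4A against WT, and 0.12 and 0.14 on the log2(TPM + 1) scale. The higher share of all calls fell from 37.7% to 17.4% in XIST-KO and from 39.7% to 28.9% in WT+Kdm4A on the log2(TPM + 1) scale.

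TXNRD1 was at 156 and 60.1 CPM in WT, 69.7 and 163 in XIST-KO, 66.3 and 106 in WT+Kdm4A and 46.5 and 53.6 CPM in IVF embryos. Both IVF libraries were the lowest, and WT against IVF was not called (log2 fold change 1.11 ± 0.72, edgeR adjusted p = 0.325). GCLM, also not called (-0.98 ± 1.51, adjusted p = 0.708), was at 1.13 and 4.01 CPM in WT, 8.5 and 6.81 in XIST-KO, 9.69 and 4.15 in WT+Kdm4A and 5.2 and 4.91 CPM in IVF embryos, below its level in every fetus library, a comparison across separately scaled stages with different library input. NQO1 had 0 counts in WT, XIST-KO and IVF and 3 in each WT+Kdm4A library. GCLC had 0 counts in all libraries but WT+Kdm4A replicate 1, with 6.91 expected counts. A count of 0 allows up to 0.188 to 0.522 CPM in the WT and XIST-KO libraries and up to 0.459 and 0.368 CPM in IVF.

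**Figure D5:**
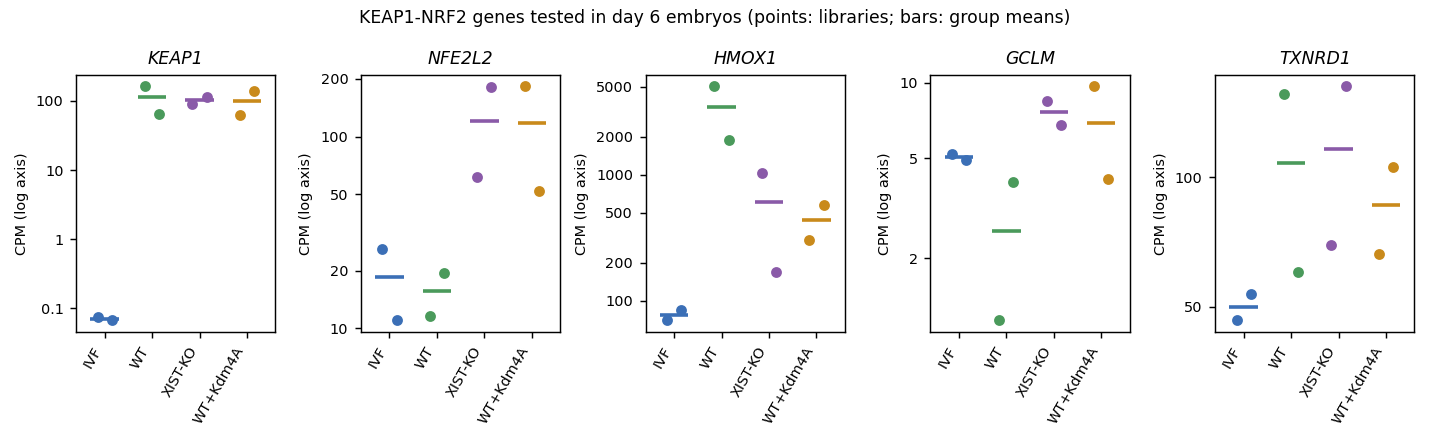
Level of the 5 members tested in day 6 embryos, in CPM on a log axis, by group; points are libraries and bars group means. KEAP1 lies at 0.0675 and 0.075 CPM in IVF and at 63.3 to 163 CPM in the cloned groups, and HMOX1 runs from 70.2 CPM in IVF to 5039 CPM in WT.

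Of the related lists, 53 genes were tested in embryos, and 3 were higher and 5 lower in WT than in IVF (4.28% and 1.42% of all genes). FTH1, the heavy chain of the iron store ferritin, was at 27719 ± 3774 CPM in WT and 2514 ± 44.8 in IVF (log2 fold change 3.46 ± 0.62, edgeR adjusted p = 0.0145, n = 2 each). It was at 4338 ± 1669 CPM in WT+Kdm4A, lower than in WT (-2.68 ± 0.60, adjusted p = 0.0249). PRDX4, the peroxiredoxin of the endoplasmic reticulum, was at 641 ± 21.9 CPM in WT, 93.9 ± 2.68 in IVF, 44.6 ± 1.8 in XIST-KO and 36.3 ± 1.3 in WT+Kdm4A. It was higher in WT than in IVF (2.77 ± 0.55, adjusted p = 0.0186) and lower than WT in XIST-KO (-3.84 ± 0.58, adjusted p = 0.0277) and WT+Kdm4A (-4.14 ± 0.59, adjusted p = 0.00573). PRDX3, the mitochondrial peroxiredoxin, and CAT, the catalase of peroxisomes, were lower in WT than in IVF. PRDX3 was at 7.57 ± 1.59 CPM in WT and 287 ± 24.3 in IVF (-5.24 ± 0.82, adjusted p = 0.00867), with 146 ± 114 in XIST-KO and 135 ± 54.8 in WT+Kdm4A, and CAT was at 12.7 ± 4.73 CPM in WT and 168 ± 58.8 in IVF (-3.73 ± 0.72, adjusted p = 0.0178). The WT against IVF calls of these 4 genes were all lost without IVF replicate 1 (adjusted p = 0.087 for FTH1, 0.136 for PRDX4, 0.0501 for PRDX3 and 0.0663 for CAT) and without IVF replicate 2 (0.187, 0.213, 0.132 and 0.188), with log2 fold changes of the same sign. Those of PRDX4 and CAT were also lost without either WT library, and those of FTH1 and PRDX3 without WT replicate 2 (adjusted p = 0.0568 and 0.0803). The call of PRDX4 in XIST-KO against WT was lost without either WT library or XIST-KO replicate 2 (adjusted p = 0.0949, 0.142 and 0.0776), and that of FTH1 in WT+Kdm4A without either WT library or WT+Kdm4A replicate 1 (adjusted p = 0.0765, 0.0998 and 0.141), while PRDX4 in WT+Kdm4A held without each library of both groups. Against WT, 3 of the 53 genes were higher and 2 lower in XIST-KO, where 1.11% of all genes were called in either direction. In WT+Kdm4A 5 were higher and 3 lower, where 7.43% were called. CAT, PRDX3 and PGD were higher in both, and IDH1 and SOD2 in WT+Kdm4A. IDH2 was lower in both, with log2 fold changes from -8.08 to -6.50 in WT+Kdm4A on leaving out a library of either group. Against IVF, XIST-KO and WT+Kdm4A had none of the 53 genes called.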

How the data were processed

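Each deposited table lists 65927 RefSeq records with the RSEM expected count, TPM and FPKM, per the file headers. The authors used RSEM 1.2.4 on Sscrofa11.1 (susScr11), per the submitters' processing notes; the aligner is not given in the sources used here. FPKM values as deposited were not used. Records were matched to symbols by RefSeq accession without version (25305 records, 14389 genes), and expected counts and TPM were summed per symbol, so a gene's level misses unmatched records. KEAP1 had 3 of 5 annotated transcripts matched, NFE2L2 4 of 8 and GCLC 1 of 3, and the other 4 members their single one. The authors' expected counts were rounded to whole numbers. After filterByExpr and TMM scaling, edgeR 4.0.16 quasi-likelihood tests were run in R 4.3.3, with 1 fit per stage, 1 mean per group and Benjamini-Hochberg adjustment over all genes tested (threshold 0.05). edgeR's common coefficient of variation was 0.29 (fetuses) and 0.893 (embryos). CPM use the TMM library sizes. Fold changes on the deposited TPM used limma 3.58.1 on log2(TPM + 1), which understates changes of low genes. The other alternatives were DESeq2 1.42.0, RLE factors, no low-count filter, log2(TPM + 0.1), only the groups compared, the replicate number as a block, records matched with their version, and each library left out.

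The members and lists were chosen with earlier results of these data known. All members tested are named in each comparison. Of the 6 related lists, up to 4 genes past the threshold per list and comparison could be named, the largest change first, at an average log2 CPM of at least 1. The genes named are a selection of these and not the largest changes. SOD3, SESN2, GGT1, MGST3 and EPHX1 had larger changes than some genes named and are not described. CAT, PRDX2 and PRDX5 were named in fetuses outside this rule, to show calls in the other direction. Genes of like pattern were the 3 with the highest Pearson r per member at an average log2 CPM of at least 3. Of these, 1 gene is not reported here. Intervals and floors cover counting error only. Summaries were made in Python 3.11.15 with numpy 2.4.6, pandas 2.3.3, scipy 1.17.1 and matplotlib 3.10.9.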

Additional observations from a re-analysis of the deposited data

How the results depend on the processing

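Of 1900 member fold changes under alternatives, 1738 kept their direction or stayed uncalled on the same side of the threshold, 83 lost a call and 79 gained one. No called change reversed, and 90 uncalled ones changed sign and stayed uncalled. The number of members called changed by more than 1.5 times as follows, and the cause was not tested unless stated. Calls over all genes also changed with the setting, as given below for DESeq2. These counts alone therefore do not show a change particular to the members. With the replicate number as a block, 1 was called in place of 3 in abnormal against normal at day 30, 1 in place of 2 in abnormal against NF at day 30 and 1 in place of 0 in WT+Kdm4A against WT; the block changed no other count by that much. Same-numbered libraries did not deviate together (r from -0.31 to 0.15, and -0.06, 0.01 and -0.03 for the 3 pairs of normal libraries across days). Where both groups held 2 libraries, both pairs give the same r by construction, which limits this check. No pairing by number was thus seen, and the labels state none. With only the groups compared, counts were 1 in place of 4 in abnormal against normal at day 35, 1 in place of 2 in abnormal against NF at day 30, 2 in place of 0 in day 35 against day 30 in normal, 2 in place of 0 in WT+Kdm4A against WT, and 0 in place of 1 in XIST-KO and in WT+Kdm4A against IVF. Matching with the version leaves 4 members (KEAP1, NQO1, HMOX1 and TXNRD1); counts were then 1 in abnormal against normal at day 35, 2 and 3 in normal against NF at day 30 and day 35, and 0 in abnormal against NF at day 30. RLE factors gave 0 in abnormal against NF at day 30. DESeq2 gave 1 in day 35 against day 30 in normal, 2 in XIST-KO and in WT+Kdm4A against WT, and 3 in XIST-KO against IVF. Over all genes DESeq2 called 1464 in WT against IVF, 932 in XIST-KO and 1554 in WT+Kdm4A against WT, and 426 and 253 in these against IVF, where edgeR called 397, 77, 517, 3 and 3. No filter gave 2 in each of XIST-KO and WT+Kdm4A against WT and against IVF. Limma on log2(TPM + 1) and on log2(TPM + 0.1) gave 1 each in abnormal against NF at day 35 and in WT+Kdm4A against WT, and log2(TPM + 1) gave 0 in WT+Kdm4A against IVF. Leaving out 1 library gave ranges of 0 to 4 and 3 to 4 in abnormal against normal at day 30 and day 35, 3 to 6 and 4 to 6 in normal against NF, 0 to 4 and 0 to 3 in abnormal against NF, 0 to 2 in day 35 against day 30 in normal, 0 to 0 in NF, 0 to 3 in abnormal, 0 to 1 in the interaction, 0 to 2 in WT against IVF, XIST-KO against WT, WT+Kdm4A against WT and XIST-KO against IVF, and 0 to 1 in WT+Kdm4A against IVF. In groups left with 1 library, that library is assumed to vary like the other groups. Depth limits day 35 abnormal replicate 2 most, where GCLC rests on 18.6 and KEAP1 on 24.07 expected counts. There GCLM rests on 29, NQO1 on 34 and NFE2L2 on 44.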
